A study of Mus musculus with 14 samples.

Results

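The data describe 10 genes of Toll-like receptor signalling in activated B cells of mice: the receptors Tlr1, Tlr4, Tlr7 and Tlr9, the receptor-like gene Cd180, the accessory genes Ly96 and Ly86, and the adaptor and kinase genes Myd88, Irak4 and Wdfy1. They were taken by their symbols from a table of 22232 genes, each symbol matched 1 row, and all 10 were among the 9610 genes tested. B cells were purified from spleen by removing the other cells. All groups received LPS (5 µg/ml) together with IL-4 (10 ng/ml) for 96 h in culture. Polyadenylated RNA was sequenced in 14 libraries of 3 genotypes, namely wild type (WT, n = 4), PU.1[155-/155-] (called PU.1 KI here, n = 5) and miR-155[-/-] (called miR-155 KO here, n = 5). PU.1 KI mice carry PU.1 alleles in which the site for miR-155 is mutated, and miR-155 KO mice lack the microRNA. Neither allele is limited to B cells by its label, so the other cells of these mice may carry it too. Age and sex of the mice: not given in the sources used here. No group was left without LPS, so the levels below are those of stimulated cells, and nothing was measured before stimulation.

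Toll-like receptors are membrane proteins that bind microbial products. TLR4 with its partner MD-2, the product of Ly96, binds LPS at the cell surface, TLR1 pairs with TLR2 to bind bacterial lipopeptides, and TLR7 and TLR9 bind RNA and unmethylated DNA inside endosomes. CD180, also called RP105, resembles TLR4 outside the cell, pairs with MD-1, the product of Ly86, and takes part in the response of B cells to LPS. MyD88 links most of these receptors to the kinase IRAK4, while WDFY1 is an adaptor that has been described as helping TLR3 and TLR4 to engage the adaptor TRIF. Mouse B cells carry TLR4, TLR7, TLR9 and CD180, and LPS makes them divide without T cell help.

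Because the genotypes concern miR-155 and PU.1, the sequences that could tie a gene to either were looked up. The mature microRNA and the match to it in the 3' untranslated region of Spi1, the gene of PU.1, are shown with the seed (bases 2 to 8 of the microRNA) and its match in capitals. In the Spi1 site the capitals also take in the A that follows the match, opposite base 1 of the microRNA, which makes it a site of 8 bases. The microRNA is from RefSeq (GRCm38.p6, chr16:84714143-84714165, plus strand) and the Spi1 site from GENCODE M21 (GRCm38, chr2:91115426-91115455, plus strand).
miR-155-5p: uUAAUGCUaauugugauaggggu
Spi1 site: ccgccggccatAGCATTAAcccgtcgcccg

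No annotated 3' untranslated region of the 10 genes held a match to that seed, spelled AGCATTA. All 10 genes had such a region in GENCODE M21, from 74 nt in Ly96 to 3249 nt in Wdfy1. Of 8578 tested genes with an annotated region, 9.8% held a match. The absence of these letters says nothing about sites of another kind.

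RefSeq promoter sequences, 250 bases before to 50 bases after a gene's start, were found for 6 of the 10 genes. They were searched on both strands for GAGGAAGT, a form of the sequence that PU.1 and related ETS factors bind. It occurred in 2 of these genes, Tlr1 and Tlr9. Of 32851 promoters 3.2% held it, which is a count of promoters and not of genes. The 30 bases around each match are shown with the match in capitals, and a link to the changes of these genes was not tested. For Tlr1 this is chr5:64933563-64933592, minus strand, before the start of 1 of its 2 promoters. For Tlr9 it is chr9:106222597-106222626, plus strand, just after the start, with the motif on the opposite strand (both GRCm38.p6).
Tlr1: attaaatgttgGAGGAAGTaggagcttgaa
Tlr9: gtgaaagtgtcACTTCCTCaattctctgag

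Depth estimated from the steps of the lowest values lay between about 31500000 and 52500000 reads per library. The gene of PU.1, listed as Sfpi1, stood at 11.99 ± 1.5 RPKM (SD, n = 4) in WT, 23.7 ± 2.0 in PU.1 KI (n = 5) and 16.7 ± 1.1 in miR-155 KO (n = 5), and these n hold below. RPKM is reads per kilobase of gene, scaled to the size of the library, so levels can be compared between genes. On the first principal component WT_1 and miR-155_5 stood apart from their groups. Of 8 B cell markers 7 had a mean of at least 1 RPKM, and their summed level was 1505 to 1740 in WT, 1548 to 1801 in PU.1 KI and 1357 to 1473 in miR-155 KO. All 8 neutrophil markers and 11 of 13 macrophage markers had a mean over the 14 libraries under 0.1 RPKM. Emr1, which did not, was at 0.20 ± 0.03 in WT, 0.253 ± 0.095 in PU.1 KI and 0.738 ± 0.083 in miR-155 KO, and Csf1r was at 0.110 ± 0.045 in WT. The macrophage sum was 6.58 to 7.65 in WT, 10.5 to 12.1 in PU.1 KI and 5.85 to 6.37 in miR-155 KO, and most of it was Cd68. Of 7 markers of plasmacytoid dendritic cells, which are rich in TLR7 and TLR9, 3 were under 0.1 RPKM, among them the defining Siglech, listed at 0 in every WT and PU.1 KI library. The sum of that list, of which Bst2 was the largest part in each genotype, was 71.1 to 114 in WT, 109.8 to 138 in PU.1 KI and 87.9 to 112 in miR-155 KO. Plasma cell markers summed to 417 to 501 in WT, 224 to 344 in PU.1 KI and 267 to 406 in miR-155 KO. These sums were below WT in both mutants, with Igj as the largest part in each genotype. By mean, Igj, Xbp1, Prdm1 and Tnfrsf17 were lower in both mutants. Irf4 was higher in both, at 37.9 ± 2.0 in WT, 49.5 ± 5.6 in PU.1 KI and 60.1 ± 3.5 in miR-155 KO. Sdc1 was lower in PU.1 KI and higher in miR-155 KO. T cell markers summed to 51.6 to 55.0 in WT, 41.6 to 50.1 in PU.1 KI and 74.7 to 82.9 in miR-155 KO, with Thy1 as most of it and 6 of 9 under 0.1 RPKM on average. Cd8a, among those 3 not under 0.1, went from 0.031 ± 0.014 in WT to 0.645 ± 0.068 in miR-155 KO. Markers of conventional dendritic cells summed to 26.1 to 33.3 in WT, 40.2 to 48.9 in PU.1 KI and 31.3 to 39.5 in miR-155 KO, with 5 of 8 under 0.1 RPKM on average. Most of it was Flt3 and Batf3. Flt3 was at 15.8 ± 1.7 in WT, 26.0 ± 2.3 in PU.1 KI and 22.9 ± 2.3 in miR-155 KO. Batf3 was at 12.4 ± 1.5, 15.1 ± 2.1 and 8.72 ± 0.76, and Zbtb46 at 2.34 ± 0.15, 2.67 ± 0.27 and 4.62 ± 0.29. The part of these lists in the changes below was not tested.

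The 10 genes covered a wide range of levels. In WT the order was Ly86 at 93.5 ± 3.7 RPKM, Tlr7 at 34.0 ± 1.4, Myd88 at 15.8 ± 0.99, Cd180 at 13.04 ± 0.48, Tlr1 at 6.88 ± 0.27, Ly96 at 6.48 ± 0.55, Tlr9 at 6.14 ± 0.59, Wdfy1 at 3.30 ± 0.14, Irak4 at 3.11 ± 0.29 and Tlr4 at 0.825 ± 0.056. The libraries of Tlr1 and Ly96, of Ly96 and Tlr9 and of Wdfy1 and Irak4 overlapped, and the other neighbours in the order did not. Tlr4, whose product binds the LPS used here, was the lowest of the 10 in each genotype. Its estimated reads, with the longest GENCODE transcript as the length, ran from 113 to 273 per library, so its counting error is larger than that of Ly86, at 8965 to 15039 reads. Wdfy1 was the 8th in WT, the 5th in PU.1 KI and the 7th in miR-155 KO, while Ly86 and Tlr7 led the order in each genotype. The plot of levels by library shows all values.

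**Figure D1:**
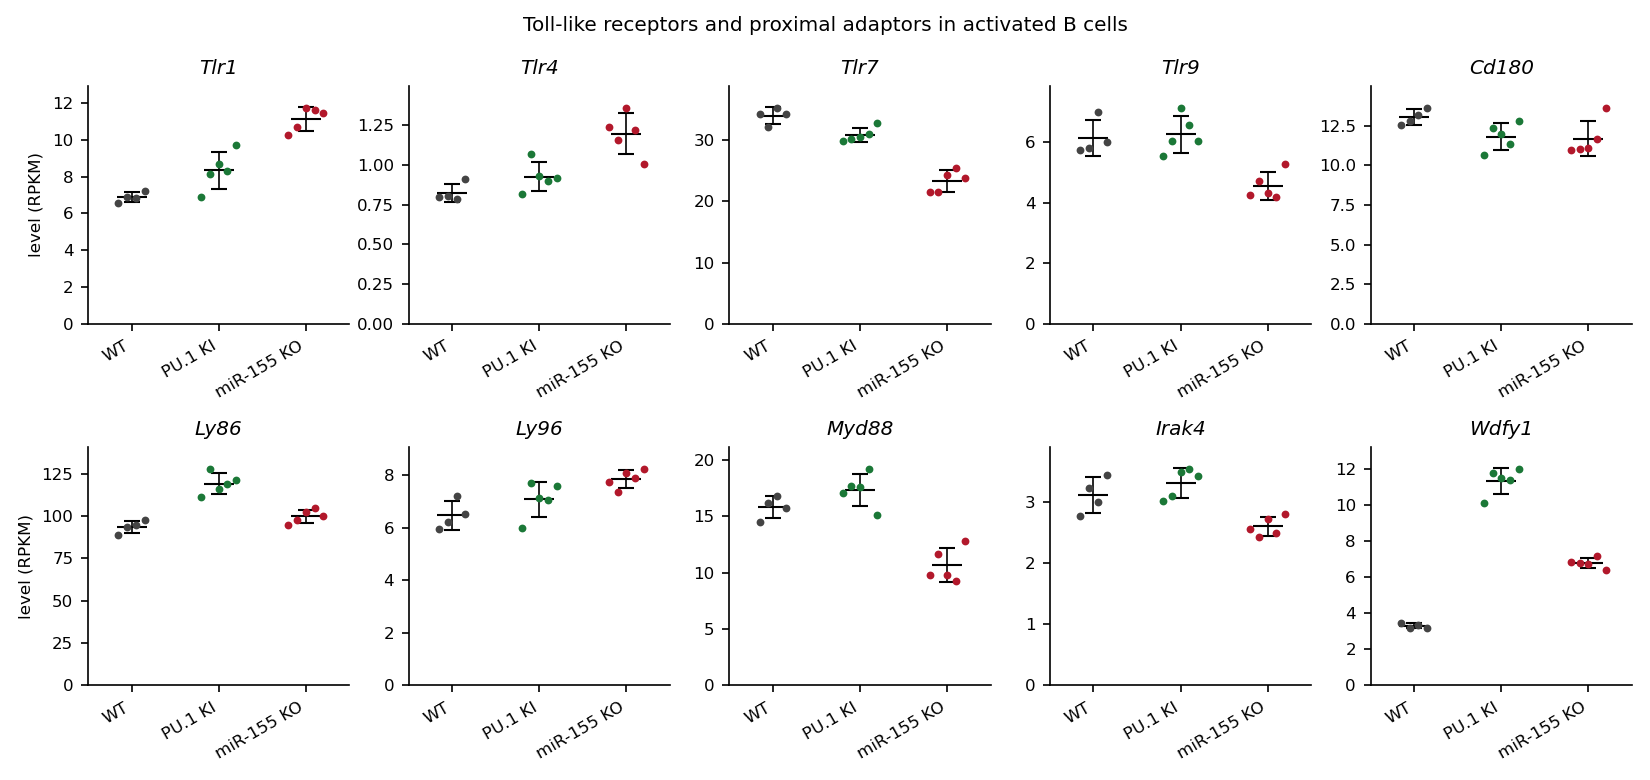
Level of each gene in RPKM (vertical axis, from 0) in every library of WT, PU.1 KI and miR-155 KO (points), with the mean as a horizontal bar and the SD as error bars (n = 4, 5 and 5). Wdfy1 lies between 3.17 and 3.46 in WT and between 10.1 and 11.97 in PU.1 KI, and the miR-155 KO libraries lie below the WT libraries for Tlr7, Tlr9 and Myd88.

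In PU.1 KI against WT, 3 of the 10 genes rose (Wdfy1, Ly86 and Tlr1) and 0 fell. All tests are by limma on log2(RPKM + 0.5) over all 14 libraries, with Benjamini-Hochberg adjustment over the 9610 genes and a threshold of 0.05. Of all genes tested 27.7% passed in this comparison, 23.7% higher and 4.02% lower, so the share of the 10 genes, 3 in 10, is close to the background. The libraries of PU.1 KI and WT did not overlap for 2 of the 10, Wdfy1 and Ly86, beside 22.1% of all genes, and 1 of them, Wdfy1, passed with a change of at least 1.5-fold, beside 2.73% of all genes. The median log2 fold change was 0.11 over the 10 genes and 0.08 over all genes. With median-of-ratios scaling or quantile normalization the counts were 3 higher and 2 lower, as Tlr7 and Cd180 then passed (over all genes 1703 higher and 1486 lower, or 1524 and 1550, against 2276 and 386 as deposited).

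In miR-155 KO against WT, 9 of the 10 passed, with Wdfy1, Tlr1, Tlr4 and Ly96 higher and Myd88, Tlr7, Tlr9, Irak4 and Cd180 lower. Here 62.5% of all genes passed, 27.1% higher and 35.3% lower, so a pass by itself is common. The libraries did not overlap for 7 of the 10 genes, beside 48.4% of all genes. A change of at least 1.5-fold was passed by 2 of them, Wdfy1 and Tlr1, beside 13.3% of all genes. The median log2 fold change was -0.03 over the 10 genes and -0.05 over all. Under median-of-ratios scaling the split was 5 higher and 4 lower, since Ly86 then passed and Cd180 did not. Under quantile normalization it was 4 and 4. Over all genes these settings gave 3393 higher and 3145 lower, and 2990 and 3545, against 2607 and 3395 as deposited. In bulk RNA, fewer cells of a type and less RNA per cell cannot be told apart. Both comparisons use the same WT libraries, so the changes from WT in the mutants are not independent of each other.

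The mutants were compared directly to see where they differed. In miR-155 KO against PU.1 KI, 8 of the 10 passed, with Tlr1 and Tlr4 higher and Wdfy1, Myd88, Tlr7, Tlr9, Irak4 and Ly86 lower, beside 64.4% of all genes (17.9% higher, 46.5% lower). The libraries did not overlap for 7 of the 10, beside 43.2% of all genes, and 2 of them, Wdfy1 and Myd88, passed with a change of at least 1.5-fold, beside 9.88%. The median log2 fold change was -0.27 over the 10 genes and -0.13 over all genes tested. Median-of-ratios scaling shifted the median of all genes by 0.14, and with it 4 of the 10 were higher and 6 lower (over all genes 3140 higher and 2879 lower, against 1721 and 4465 as deposited). Under it the difference of Tlr7 was -0.25, that of Ly86 -0.10 and that of Irak4 -0.17, each still past the threshold. Cd180 and Ly96 then passed as higher, by 0.12 and 0.28.

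**Figure D2:**
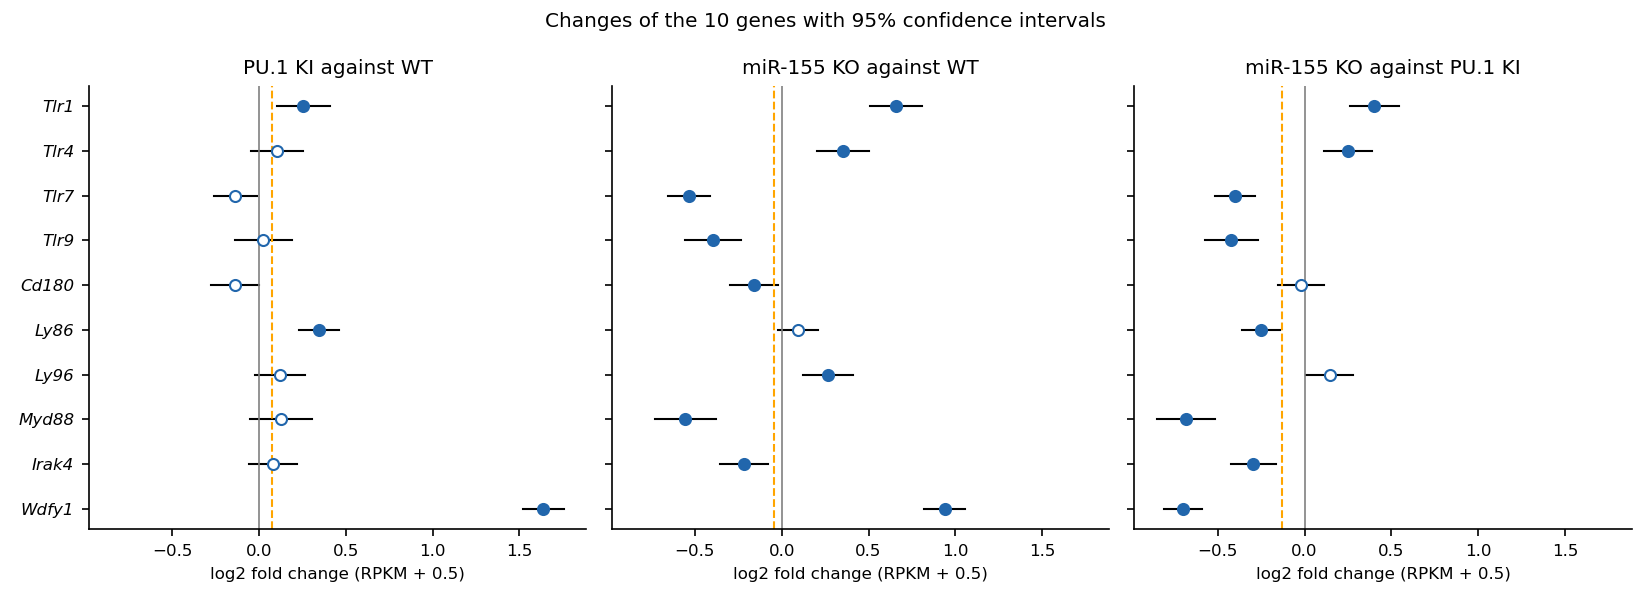
Log2 fold change on the log2(RPKM + 0.5) scale (horizontal axis) of the 10 genes in each of the 3 comparisons, with 95% confidence intervals as lines. Filled points passed an adjusted p under 0.05, the grey line is no change and the dashed line the median of all genes tested. Wdfy1 is at 1.64 and 0.94 against WT, and Myd88, Tlr7 and Tlr9 lie at -0.55, -0.53 and -0.39 in miR-155 KO against WT.

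**Figure D3:**
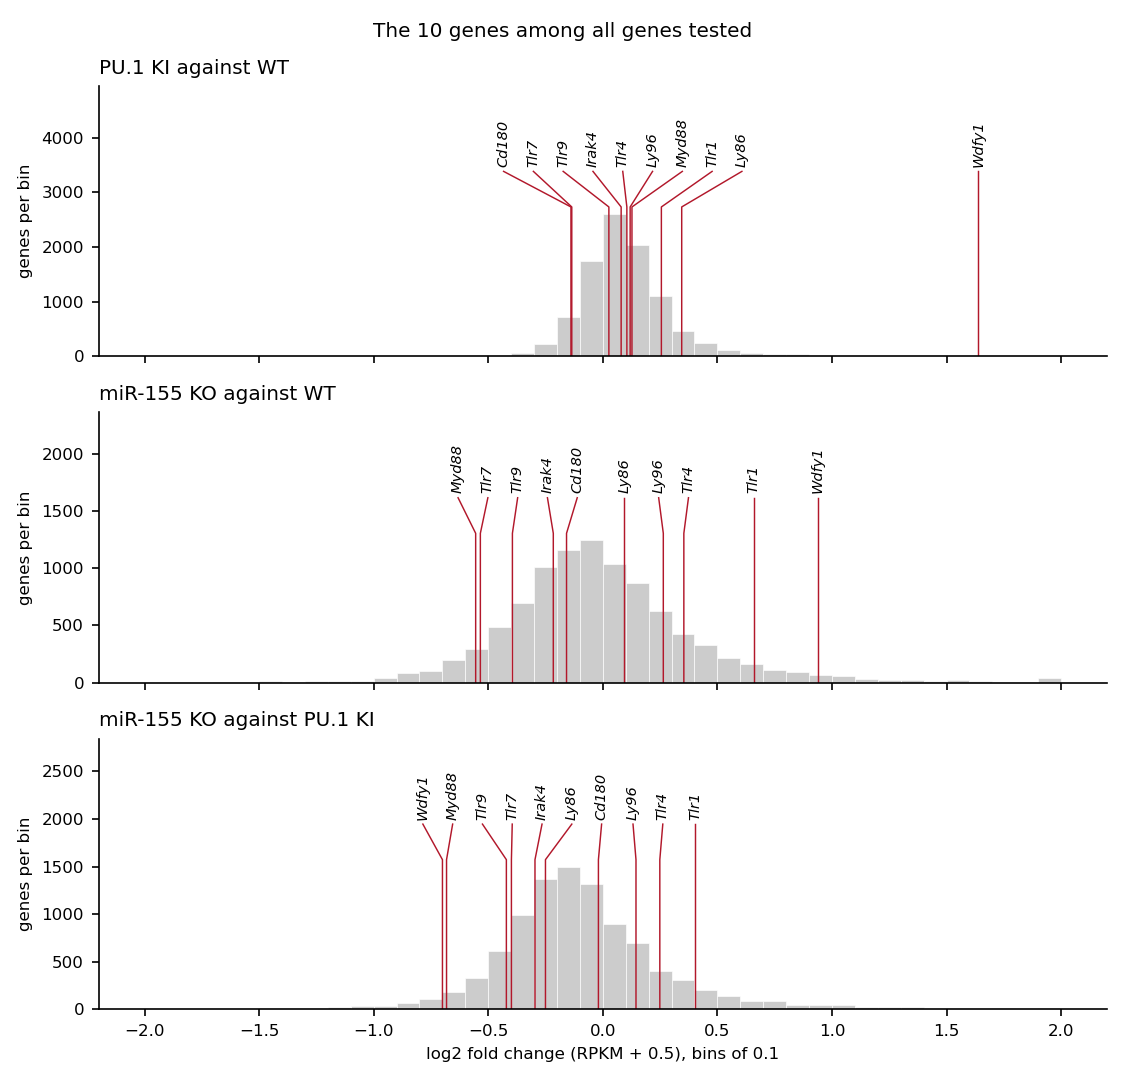
Histogram of the log2 fold changes of the 9610 genes tested (grey bars, genes per bin of 0.1, with values beyond the axis limits placed in the outermost bins), with the 10 genes as red lines. Wdfy1 at 1.64 stands in the far right tail in PU.1 KI, while the other 9 genes there lie between -0.14 and 0.34.

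Wdfy1 (ENSMUSG00000073643, chromosome 1 from 79698837 to 79772718, minus strand of NCBIM37), the adaptor that has been linked to TRIF, differed most. The WT libraries held 3.46, 3.17, 3.37 and 3.19 RPKM, the PU.1 KI libraries 10.1, 11.7, 11.5, 11.4 and 11.97, and the miR-155 KO libraries 6.84, 6.77, 6.74, 7.16 and 6.38. The 3 genotypes did not overlap, with miR-155 KO between the others. The log2 fold change from WT was 1.64 ± 0.06 (SE) in PU.1 KI, or 3.11-fold (limma adjusted p = 2.48e-13), the smallest p of all 9610 genes. In miR-155 KO it was 0.94 ± 0.06, or 1.92-fold (limma adjusted p = 3.87e-11). The mutants differed by -0.70 ± 0.05 (limma adjusted p = 1.49e-09). By size, 99.97% of the genes tested changed no more than Wdfy1 in PU.1 KI and 95.8% in miR-155 KO. Wdfy1 was chosen with its large change in PU.1 KI known, so its rank there is a description. Its span shares 126 bp with Mrpl44 on the other strand, and Mrpl44 did not pass in PU.1 KI (log2 fold change 0.05) and fell by 0.20 in miR-155 KO.

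The 3 genes with a pattern most like that of Wdfy1 over the 14 libraries were Sema4a, Xkrx and Fam70a. Likeness was the root mean square difference of log2 values after each gene's mean was taken away, which was 0.14 for Sema4a, 0.23 for Xkrx and 0.25 for Fam70a, beside an SD of 0.68 for Wdfy1 itself. Sema4a, a semaphorin gene, had means of 2.24, 9.35 and 5.04 RPKM in WT, PU.1 KI and miR-155 KO, and so shared the order of Wdfy1. In the same order the means were 1.17, 4.11 and 1.77 for Xkrx and 0.288, 1.15 and 0.737 for Fam70a. Only in PU.1 KI was the mean of Fam70a above 1 RPKM, the level that the filter on low values asks for.

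Among the surface receptors, Tlr1 (ENSMUSG00000044827, chromosome 5 from 65316050 to 65324000, minus strand) rose in both mutants. WT held 6.59, 6.88, 6.81 and 7.23 RPKM, PU.1 KI 6.91, 8.12, 8.68, 8.33 and 9.71, and miR-155 KO 10.2, 10.7, 11.8, 11.6 and 11.4. Every miR-155 KO library was above every other library, while PU.1_1 lay within the WT range and the other 4 PU.1 KI libraries lay above it. The log2 fold change was 0.26 ± 0.07 in PU.1 KI (limma adjusted p = 0.0129) and 0.66 ± 0.07 in miR-155 KO (limma adjusted p = 2.56e-07), and the difference between the mutants was 0.40 ± 0.07 (limma adjusted p = 5.25e-05). Tlr1 and its neighbour Tlr6 are close paralogs, and the authors' treatment of reads that match both is unknown, so their values are uncertain to that extent. Genes nearest to Tlr1 in pattern were Med13l, Dusp16 and Zkscan3, at root mean square differences of 0.07 each.

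Tlr4 (ENSMUSG00000039005, chromosome 4 from 66488618 to 66591318, plus strand), the LPS receptor, was low throughout. WT held 0.80, 0.806, 0.786 and 0.908 RPKM, PU.1 KI 0.819, 1.07, 0.929, 0.899 and 0.915, and miR-155 KO 1.23, 1.16, 1.36, 1.22 and 1.007. The miR-155 KO libraries were all above WT, and miR-155_5, the lowest, overlapped PU.1_2. The change was 0.35 ± 0.07 in miR-155 KO against WT (limma adjusted p = 0.000248) and 0.10 ± 0.07 in PU.1 KI (limma adjusted p = 0.293, 95% interval -0.04 to 0.25). Tlr4 passed the filter on low values through miR-155 KO, which held 5 of its 6 libraries at 1 RPKM or more, but it was also called without a filter (adjusted p = 0.000442). With quantile normalization the call was lost (0.15, adjusted p = 0.0641).

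Ly96 (ENSMUSG00000025779, chromosome 1 from 16678537 to 16699686, plus strand), which encodes the MD-2 partner of TLR4, moved the same way as Tlr4 in miR-155 KO. Its values ran from 5.94 to 7.22 RPKM in WT, from 5.99 to 7.69 in PU.1 KI and from 7.38 to 8.24 in miR-155 KO. The miR-155 KO libraries did not overlap WT, and the PU.1 KI libraries overlapped both. Ly96 changed by 0.26 ± 0.07 on the log2 scale in miR-155 KO (limma adjusted p = 0.00261) and 0.12 ± 0.07 in PU.1 KI (limma adjusted p = 0.214). Without PU.1_1, the lowest library of PU.1 KI for 9 of the 10 genes, the latter was 0.17 and passed (adjusted p = 0.0354).

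Cd180 (ENSMUSG00000021624, chromosome 13 from 103483638 to 103529709, plus strand), the TLR4-like receptor gene, changed little. It ran from 12.5 to 13.6 RPKM in WT, from 10.6 to 12.8 in PU.1 KI and from 10.98 to 13.6 in miR-155 KO, where miR-155_5 at 13.6 stood above the other 4 at 11.6 or less. The groups overlapped. In miR-155 KO the log2 fold change of -0.16 ± 0.07 was just past the threshold (limma adjusted p = 0.0454). Other scalings ended the call, at -0.10 under median-of-ratios (adjusted p = 0.106) and -0.09 under quantile normalization (adjusted p = 0.116). So did testing every gene with no filter (adjusted p = 0.0608) and fitting those 2 groups alone (adjusted p = 0.0506). It was also lost without WT_2, WT_3, WT_4, PU.1_2, PU.1_3 or any 1 of miR-155_1 to miR-155_4, at adjusted p from 0.052 to 0.116. In PU.1 KI the change was -0.14 ± 0.07 (limma adjusted p = 0.129), which was called lower when scaled by median of ratios (-0.22, adjusted p = 0.00423) and by quantile normalization (-0.23, adjusted p = 0.00353). Cd180 overlaps Mast4 on the other strand by 7144 bp, and Mast4 was at 1.59 RPKM in WT with no call.

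Ly86 (ENSMUSG00000021423, chromosome 13 from 37437214 to 37510905, plus strand), which encodes the MD-1 partner of CD180, was the most abundant of the 10 and rose in PU.1 KI. WT held 88.7, 93.4, 94.5 and 97.6 RPKM, PU.1 KI 111, 128, 116, 119 and 121, and miR-155 KO 94.9, 97.7, 102, 104 and 100.1. All PU.1 KI libraries were above all others, and WT and miR-155 KO overlapped. Its log2 fold change was 0.34 ± 0.05 in PU.1 KI (limma adjusted p = 0.000103) and 0.09 ± 0.05 in miR-155 KO (limma adjusted p = 0.142), and the mutants differed by -0.25 ± 0.05 (limma adjusted p = 0.00034). The summed macrophage markers were also higher in PU.1 KI, while 11 of the 13 had a mean under 0.1 RPKM. Most of that sum was Cd68, at 6.80 ± 0.48 RPKM in WT and 10.9 ± 0.58 in PU.1 KI. Emr1 was at 0.20 ± 0.03 in WT and 0.253 ± 0.095 in PU.1 KI, and Csf1r at 0.110 ± 0.045 and 0.054 ± 0.034. The part of these markers in the rise of Ly86 was not tested. The difference between the mutants was no longer called with quantile normalization (-0.07, adjusted p = 0.175). In miR-155 KO against WT, Ly86 was called higher with that normalization (0.17, adjusted p = 0.00438) and with median-of-ratios scaling (0.16, adjusted p = 0.00588).

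Within a library, the ratio of an accessory gene to its receptor gene does not depend on the library's scaling. Ly86 over Cd180 was 7.17 ± 0.09 in WT (lowest 7.08, highest 7.29), 10.1 ± 0.47 in PU.1 KI (9.50 to 10.5) and 8.61 ± 0.72 in miR-155 KO (7.37 to 9.21). Every mutant library was above every WT library, with miR-155_5 the closest. Ly96 over Tlr4 was 7.88 ± 0.90 in WT, 7.66 ± 0.44 in PU.1 KI and 6.65 ± 0.88 in miR-155 KO. Of the miR-155 KO libraries 4, from 5.96 to 6.47, lay below every WT and PU.1 KI library, the lowest of which was at 7.19, and miR-155_5 at 8.18 lay among them. These ratios were chosen after the values were seen and were given no test.

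**Figure D4:**
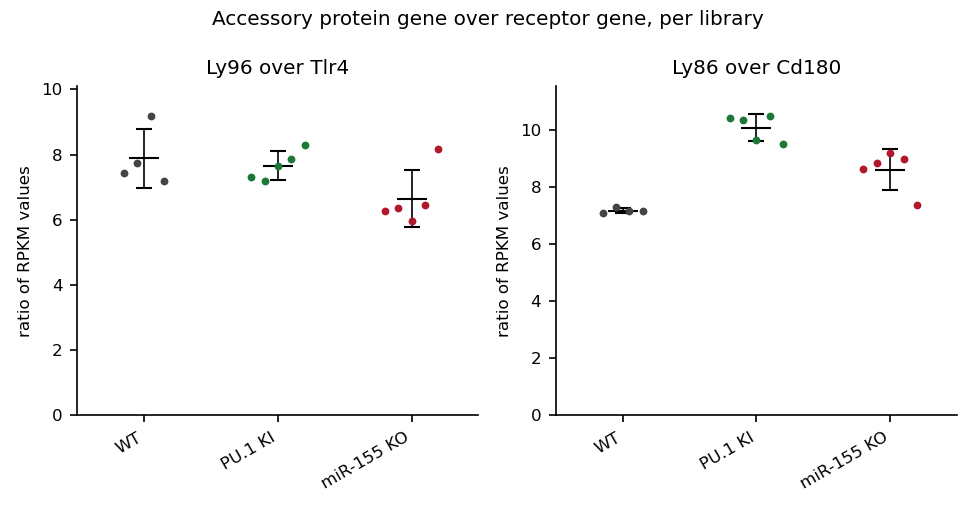
Ratio of the RPKM of an accessory gene to that of its receptor gene (vertical axes, from 0) in every library (points), with means as bars and SD as error bars (n = 4, 5 and 5). Ly86 over Cd180 lies from 7.08 to 7.29 in WT and from 9.50 to 10.5 in PU.1 KI, while for Ly96 over Tlr4 the miR-155 KO libraries lie from 5.96 to 6.47 except miR-155_5 at 8.18.

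The endosomal receptors fell in miR-155 KO. Tlr7 (ENSMUSG00000044583, chromosome X from 163742861 to 163768490, minus strand), the receptor for single-stranded RNA, held 34.3, 32.1, 35.3 and 34.2 RPKM in WT, 29.8, 30.2, 30.5, 31.0 and 32.8 in PU.1 KI, and 21.5, 21.6, 24.3, 25.4 and 23.8 in miR-155 KO. Every miR-155 KO library was below every other, and PU.1 KI lay below WT except that PU.1_5 exceeded WT_2. The log2 fold change was -0.53 ± 0.06 in miR-155 KO, or 1.45-fold lower (limma adjusted p = 2.12e-07). In PU.1 KI it was -0.14 ± 0.06 (limma adjusted p = 0.091), and it passed when scaled by median of ratios (-0.22, adjusted p = 0.00383) or by quantiles (-0.22, adjusted p = 0.00845). The mutants differed by -0.40 ± 0.05 (limma adjusted p = 4.67e-06), or -0.21 with quantile normalization (adjusted p = 0.00283).

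Tlr9 (ENSMUSG00000045322, chromosome 9 from 106124929 to 106129207, plus strand), the receptor for unmethylated CpG DNA, held 5.75, 5.79, 6.999 and 6.01 RPKM in WT, 5.55, 6.03, 7.14, 6.57 and 6.02 in PU.1 KI, and 4.27, 4.71, 4.32, 4.19 and 5.27 in miR-155 KO. The miR-155 KO libraries lay below all others, with miR-155_5 nearest to them, and WT and PU.1 KI overlapped. Its log2 fold change was -0.39 ± 0.08 in miR-155 KO (limma adjusted p = 0.0002) and 0.03 ± 0.08 in PU.1 KI (limma adjusted p = 0.829, 95% interval -0.13 to 0.19). The mutants differed by -0.42 ± 0.07 (limma adjusted p = 5.96e-05). Markers of plasmacytoid dendritic cells moved in different directions beside this fall. Cox6a2 went from 2.94 ± 0.62 RPKM in WT to 32.5 ± 4.9 in miR-155 KO, Bst2 from 74.4 ± 16.6 to 52.4 ± 6.4 and Pacsin1 from 6.09 ± 0.66 to 4.14 ± 0.69, while Siglech was at or near 0. Their part in the falls of Tlr7 and Tlr9 was not tested.

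Myd88 (ENSMUSG00000032508, chromosome 9 from 119245052 to 119250529, minus strand), the adaptor of the Toll-like receptors other than TLR3, also fell in miR-155 KO. WT held 14.5, 16.2, 16.8 and 15.7 RPKM, PU.1 KI 17.1, 17.6, 17.6, 19.2 and 15.1, and miR-155 KO 9.78, 11.6, 9.82, 9.22 and 12.8. No miR-155 KO library reached the lowest WT library, and WT and PU.1 KI overlapped. The log2 fold change was -0.55 ± 0.08 in miR-155 KO, or 1.47-fold lower (limma adjusted p = 1.38e-05), and 0.13 ± 0.08 in PU.1 KI (limma adjusted p = 0.287). The mutants differed by -0.68 ± 0.08 (limma adjusted p = 6.28e-07). The nearest genes in pattern were Bsg, Adam19 and Polr2h, at root mean square differences of 0.06, 0.07 and 0.08. Myd88 shares 118 bp with Acaa1a on the other strand, which had no call in any of the 3 comparisons.

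Irak4 (ENSMUSG00000059883, chromosome 15 from 94374074 to 94412246, plus strand), the kinase that MyD88 recruits, ran from 2.77 to 3.45 RPKM in WT, from 3.01 to 3.54 in PU.1 KI and from 2.43 to 2.81 in miR-155 KO. Only miR-155_5 reached the WT range. It changed by -0.22 ± 0.07 on the log2 scale in miR-155 KO (limma adjusted p = 0.00806) and 0.08 ± 0.07 in PU.1 KI (limma adjusted p = 0.399), and the mutants differed by -0.30 ± 0.06 (limma adjusted p = 0.000411). Irak4 overlaps Twf1 on the other strand by 3865 bp. Twf1 fell in miR-155 KO too, from 6.23 ± 0.35 to 5.04 ± 0.41 RPKM (log2 fold change -0.28 ± 0.06, limma adjusted p = 0.000401). Since the strand setting of the counting is unknown, reads of Irak4 and Twf1 in the shared stretch cannot be told apart.

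The other genes of the pathway were taken from a list of 63 genes, of which 61 were in the table and 50 were tested. In PU.1 KI against WT 19 of the 50 rose and 1 fell, with a median log2 fold change of 0.18 beside 0.08 over all genes. That is 40% called, beside 27.7% of all genes, and the counts were 17 and 7 with median-of-ratios scaling. In miR-155 KO against WT 20 rose and 13 fell, or 66% beside 62.5%, with a median of 0.05 beside -0.05. Between the mutants 11 were higher in miR-155 KO and 21 lower, or 64% beside 64.4%, and with median-of-ratios scaling 19 and 14.

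Of 8 other Toll-like receptor genes 3 were tested. Tlr6, which pairs with TLR2 as TLR1 does, rose from 1.13 ± 0.09 RPKM in WT to 1.66 ± 0.11 in PU.1 KI and 1.56 ± 0.22 in miR-155 KO. Tlr2 rose in PU.1 KI, from 1.45 ± 0.15 to 1.84 ± 0.27, and stood at 1.55 ± 0.06 in miR-155 KO with no call. Tlr12 was at 3.57 ± 0.36 in WT with no call in any of the 3 comparisons. Tlr3, a receptor for double-stranded RNA, had means of 0.257, 0.291 and 0.11 RPKM in WT, PU.1 KI and miR-155 KO and was not tested, and Cd14, which passes LPS to TLR4 in macrophages, had a highest value of 0.085.

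Co-receptor and trafficking genes had 4 rises and 0 falls among 8 in PU.1 KI, and 6 rises and 0 falls in miR-155 KO, or 50% and 75% called beside 27.7% and 62.5% of all genes. Over all genes 23.7% were higher and 4.02% lower in PU.1 KI, and 27.1% higher and 35.3% lower in miR-155 KO. Ctsl, a protease that trims endosomal receptors, showed the largest of these, from 1.46 ± 0.06 RPKM in WT to 3.07 ± 0.38 in miR-155 KO (log2 fold change 0.86 ± 0.07, limma adjusted p = 8.24e-09). Unc93b1, the chaperone that carries TLR7 and TLR9 to endosomes, was at 103 ± 15.4, 119 ± 13.8 and 109.95 ± 10.0 RPKM with no call. Slc15a4, an endosomal transporter needed for TLR7 and TLR9 signalling, rose in PU.1 KI from 9.95 ± 0.72 to 11.8 ± 0.70 RPKM.

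Of the other adaptors 4 were tested, of which 2 rose and 0 fell in PU.1 KI, and 1 rose and 1 fell in miR-155 KO (50% called in each, beside 27.7% and 62.5% of all genes). Ticam1, which encodes TRIF, rose from 11.8 ± 0.83 RPKM in WT to 17.6 ± 1.9 in PU.1 KI (log2 fold change 0.55 ± 0.07, limma adjusted p = 7.22e-06) and 17.8 ± 0.25 in miR-155 KO (0.58 ± 0.07, limma adjusted p = 7.66e-07). Tirap, which brings MyD88 to the membrane, fell in miR-155 KO from 2.94 ± 0.11 to 2.26 ± 0.20 RPKM (-0.32 ± 0.09, limma adjusted p = 0.00431). Ticam2, which encodes the adaptor TRAM that joins TRIF to TLR4, had no call, at 23.2 ± 1.8 RPKM in WT and 22.4 ± 0.85 in miR-155 KO (-0.05 ± 0.06, limma adjusted p = 0.544). Pik3ap1, the B cell adaptor BCAP, rose in PU.1 KI from 61.4 ± 4.4 to 87.5 ± 5.8 RPKM (0.51 ± 0.06) and stood at 59.8 ± 1.2 in miR-155 KO.

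Among 19 tested kinases and ligases 5 rose and 0 fell in PU.1 KI, and 7 rose and 6 fell in miR-155 KO. These shares, 26.3% and 68.4%, are close to the 27.7% and 62.5% of all genes. Tab2, a subunit of the TAK1 kinase complex, and Peli1, a ubiquitin ligase of this pathway, had the largest rises in miR-155 KO. Their log2 fold changes there were 0.93 ± 0.06 and 0.91 ± 0.05 (limma adjusted p = 9.97e-11 and 1.39e-11). Irak1, the partner of IRAK4, rose in PU.1 KI by 0.18 ± 0.06 and fell in miR-155 KO by 0.36 ± 0.06 on the log2 scale.

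Of the IRF factors, Irf7, which drives type I interferon genes after TLR7 and TLR9, went opposite ways. It rose from 29.3 ± 3.3 RPKM in WT to 50.4 ± 2.8 in PU.1 KI (log2 fold change 0.78 ± 0.07, limma adjusted p = 1.17e-07) and fell to 14.9 ± 0.76 in miR-155 KO (-0.95 ± 0.07, limma adjusted p = 9.35e-10). Between the mutants it differed by -1.73 ± 0.07 (limma adjusted p = 1.07e-13). Negative regulators had 4 rises and 1 fall among 13 in PU.1 KI, and 4 rises and 5 falls in miR-155 KO, or 38.5% and 69.2% called beside 27.7% and 62.5% of all genes. Dok2, an adaptor that dampens signalling, fell in both, from 5.79 ± 0.48 RPKM in WT to 3.98 ± 0.42 and 2.28 ± 0.73. Dok3, a related adaptor, fell in miR-155 KO by 0.55 ± 0.15 on the log2 scale (limma adjusted p = 0.00336). Dok1, of the same family, went the other way, from 15.5 ± 1.3 RPKM in WT to 19.9 ± 1.4 in PU.1 KI and 23.3 ± 0.92 in miR-155 KO. Irak3 and Tnfaip3 of this list also rose in both mutants.

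**Figure D5:**
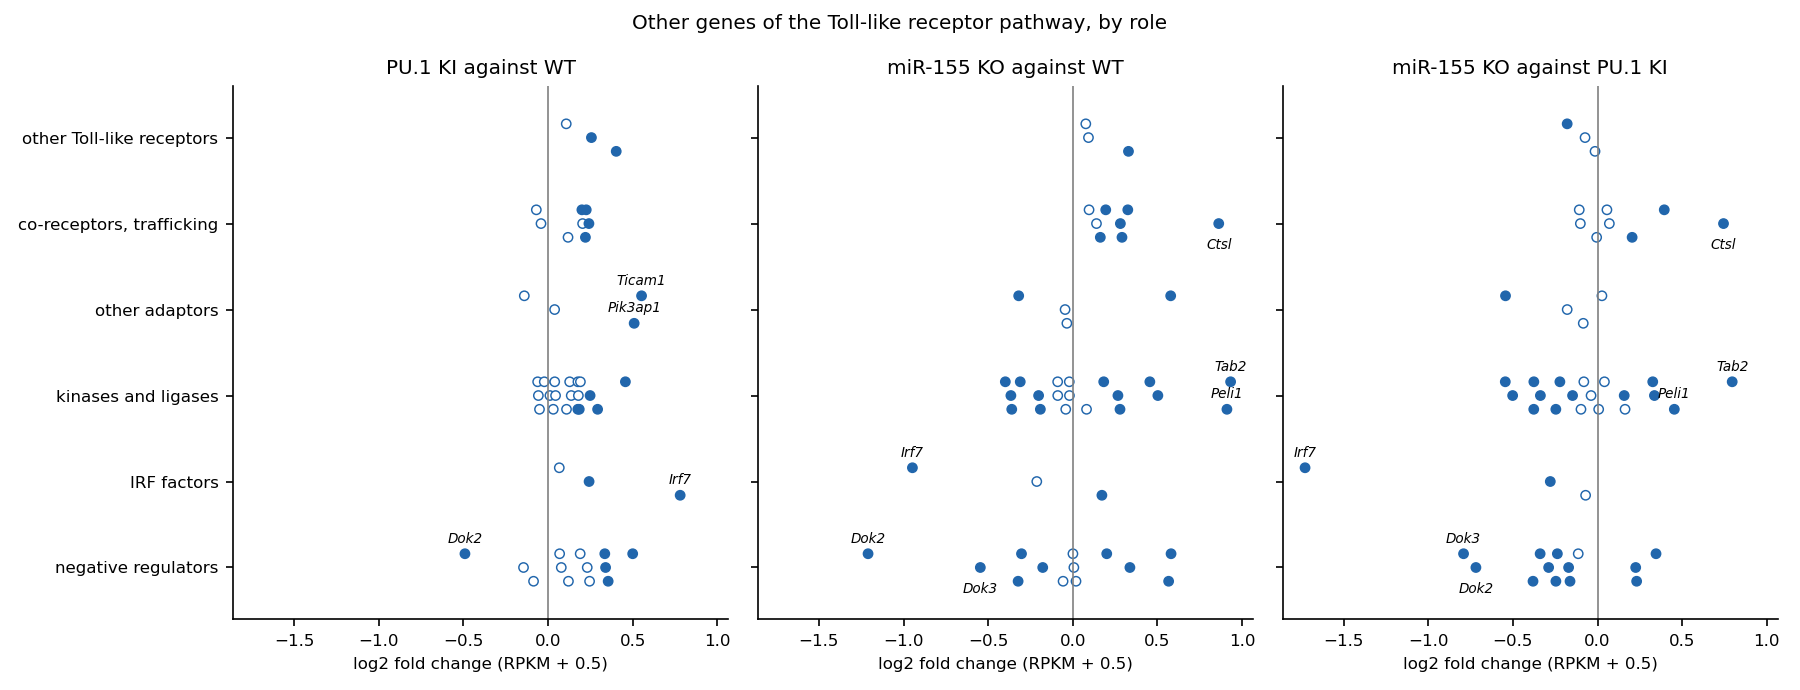
Log2 fold change on the log2(RPKM + 0.5) scale (horizontal axes) of the 50 tested genes of the wider pathway, 1 point per gene, by role (rows) and comparison (panels). Filled points passed an adjusted p under 0.05 and the labelled genes had the largest passing changes. Irf7 is at 0.78 in PU.1 KI and at -0.95 in miR-155 KO, and the kinases and ligases spread to both sides in miR-155 KO.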

How the data were processed

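The authors deposited RPKM values for 14 libraries in 1 table, with a column per library, per the file headers. Trim Galore, TopHat and mouse build NCBIM37 are named, without versions, per the submitters' processing notes. Read counter, annotation, strand setting and treatment of reads with several matches: not given in the sources used here. Of 22295 rows, 63 repeated a gene, and for each gene the row with the highest mean was kept. All 14 RPKM columns matched a library by name and 0 did not.

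Genes with at least 1 RPKM in at least 4 libraries were tested on log2(RPKM + 0.5) with limma (version 3.58.1, R 4.3.3), a scale that understates the change of low genes. The fit had 1 mean per genotype over all 14 libraries and variances moderated by empirical Bayes along a trend with level. Tests were two-sided with Benjamini-Hochberg adjustment at 0.05. No count model was run. Scripts were tested on simulated data. Of 50 genes changed 1.2-fold there, 30 were called in PU.1 KI against WT and 32 in miR-155 KO against WT. All 50 changed 1.5-fold were called in both, so changes well under that size can be missed. Of 9410 genes left unchanged there, 9 and 13 were called. In the data 27.7% and 62.5% of genes passed, a far larger share than was changed in the simulation. The adjustment was therefore stricter in the simulation, and its shares of called genes do not carry over to the data. Depth came from the 250 lowest values above 0 of genes spanning under 2500 bp, of which 67.2% to 72.8% lay within 0.01 of whole reads. That is too few to recover read counts.

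The 10 genes and the lists were chosen with earlier results of these data known. Named genes were the 10, the 3 largest passing rises and falls of the wider pathway in each comparison, and the 3 genes most like each of the 10 that passed with a change of at least 1.5-fold; other pathway genes were named for their role after their values were seen. Syk and Scimp of the pathway list were not analysed here. The design text calls the replicates biological. Tables and figures were made in Python 3.11.15 (pandas 2.3.3, matplotlib 3.10.9, numpy 2.4.6). Alternatives were other scalings, pseudocounts and filters, fits of 2 groups alone, a replicate block and leaving out each library.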

Additional observations from a re-analysis of the deposited data

Results flagged for a closer look

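In 2 of the 30 sets of libraries examined (10 genes in 3 genotypes) a single library lay far from the others of its genotype. Chance alone gives about 1 such set in 20. Tlr4 in WT_4 was at 0.908 RPKM, with the other 3 WT libraries from 0.786 to 0.806. Cd180 in miR-155_5 was at 13.6 RPKM, with the next library of its genotype at 11.6 and the lowest at 10.98. Without miR-155_5 the log2 fold change of Cd180 in miR-155 KO against WT was -0.21 in place of -0.16.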

How the results depend on the processing

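The number of the 10 genes called in PU.1 KI against WT went from 3 to 5 with median-of-ratios scaling, with quantile normalization and in a fit blocked by replicate number. Leaving out 1 library at a time gave 3 to 4 calls there, 8 to 9 in miR-155 KO against WT and 8 to 9 between the mutants. For the wider pathway it gave 16 to 25, 31 to 34 and 28 to 33. Over all genes, calls in PU.1 KI against WT ran from 1625 higher and 337 lower (without WT_1) to 2783 and 334 (without PU.1_1). In miR-155 KO against WT they ran from 2517 and 3020 (without WT_3) to 2503 and 3670 (without miR-155_5). Between the mutants they ran from 1678 and 4048 (without miR-155_1) to 1657 and 4784 (without miR-155_5). Of 713 refits of a gene's change over 24 settings, 671 kept their direction and side of the threshold. With the direction kept, 15 lost a call and 16 gained one. The other 11 changed sign, all 11 in genes without a call as deposited. A refit that changed sign and also passed, as Cd180 between the mutants with median-of-ratios scaling, is counted in these 11 only. In PU.1 KI against WT the change of Tlr9 was -0.0546 with median-of-ratios scaling and -0.0581 with quantile normalization. It was -0.00112 without WT_1, and the same when miR-155_5 was left out as well, and over single libraries left out it ran from -0.0186 (PU.1_3) to 0.0864 (WT_3). With quantile normalization Tlr4 was at -0.0354 and Irak4 at -0.00636 there. Between the mutants Cd180 was at 0.12 with median-of-ratios scaling, 0.13 with quantile normalization, 0.00856 without PU.1_5 and 0.000513 without miR-155_1, with a lowest value of -0.0732 without miR-155_5. The cause was not tested. A filter of 5 RPKM in 4 libraries left out Tlr4 and Irak4, which have no value there, and Tlr4 did not pass the usual filter when PU.1 KI and WT were fitted alone. Leaving out both WT_1 and miR-155_5 was chosen after seeing the data and gave 3, 9 and 8 calls. Over all genes it gave 1762 higher and 455 lower, 2297 and 3907, and 1692 and 4882.

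Whether the replicate numbers pair the libraries is unknown. Same-numbered deviations from the group means correlated at 0.22, 0.04, 0.36 and 0.12 over genes for WT and PU.1 KI. In the other comparisons they correlated from -0.39 to 0.47. PU.1_1 and PU.1_3 correlated best with the WT library of their own number, and PU.1_2 and PU.1_4 did not. Of the miR-155 KO libraries only miR-155_2 did so, with WT and with PU.1 KI. With the block, the 5 calls in PU.1 KI added Tlr7 (-0.15) and Cd180 (-0.18), and Ly96 passed between the mutants (0.14, adjusted p = 0.032). Over all genes the block gave 2385 higher and 518 lower in PU.1 KI against WT, against 2276 and 386 as deposited. Counting error was 6.06% to 9.39% for Tlr4 and 6.08% to 7.98% for Ly96.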
